A study of Arabidopsis thaliana with 6 samples.

Results

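Class III peroxidases are secreted heme enzymes of plants that use hydrogen peroxide to oxidise phenolic compounds, and in doing so can stiffen or loosen the cell wall, help to build lignin, or release reactive oxygen species. Arabidopsis has a large family of them, many of whose genes lie next to each other as tandem copies. The 50 genes described here are the members that remain when those classed as stress-inducible, as root hair genes and as endodermal or lignifying genes are set aside, out of 73 loci of the family in all. They were listed by locus code. A probe table paired 46 of the 50 loci with 43 probe sets: 39 loci had a probe set of their own, and 7 were covered by 4 probe sets that the table also assigns to another gene. The loci PRX2 (AT1G05250), AT3G32980, PRXCA (AT3G49110) and PRXCB (AT3G49120) had no named probe set and were not analysed here. PRXCA and PRXCB, which are known as sources of the apoplastic oxidative burst in defence, are therefore not covered. Most members carry only a locus code in the gene table used, so a role is given only for those with a name.

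Transcripts were profiled in the roots of Arabidopsis thaliana (Col 0), a small mustard-family plant widely used as a model, on 6 Affymetrix ATH1 arrays. Plants had grown for 14 days in sealed jars of liquid medium at pH 5.7; 3 jars then received 0.125 mM KAuCl4, a soluble gold(III) salt, and 3 jars received none and are labelled untreated or water-treated. The sample labels give 24 h of exposure and the treatment protocol 6 h, so the time is not settled. Both groups carried the same Col 0 background, and precision is set by the small number of arrays.

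Each deposited value is on a log2 scale (base read as 2) relative to the median of the 6 arrays for that probe set, so differences between arrays could be measured but expression levels could not. Where the groups do not overlap, this centring places one group above 0 and the other below it by construction. For the same reason, tissue identity could not be checked from marker levels. The array of no gold replicate 1 stood apart in control pairs of actin and GAPDH. In 4 pairs its 5' minus 3' difference of centred values was -0.26, -4.70, -4.89 and -2.55. The other 5 arrays ran from -1.02 to 0.54 over the 4 pairs. In the first pair, of actin, they ran from -0.20 to 0.17, so there no gold replicate 1 was only slightly lower. Gold replicate 2 was the lowest of those 5 in all 4 pairs. Counts are therefore also given without each of these arrays.

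Of the 43 probe sets, 10 were higher and 9 lower with gold, and 24 did not pass the test (limma over all 22746 probe sets, Benjamini-Hochberg adjusted p below 0.05). That is 44.2% of the measured members, against 20.2% of all probe sets. Rises made up 23.3% of the members and 9.32% of all probe sets, falls 20.9% and 10.9%. The median change was -0.15 among the members and -0.04 over all probe sets, while the median size of change regardless of sign was 0.770 and 0.278. The members' median was -0.05 without no gold replicate 1, -0.04 without gold replicate 2 and 0.09 without both. Its sign thus turned only with both arrays left out, a setting chosen after seeing the data. After quantile normalization the members' median was -0.01. The gold values lay wholly above the no gold values in 13 members (15.6% of all probe sets did so) and wholly below them in 11 (21.6% of all probe sets). Of the 19 changed probe sets, 18 changed at least 2-fold. Over all probe sets, 1590 of the 2121 rises and 1456 of the 2480 falls did so. Without no gold replicate 1 the counts among the members were 11 higher and 9 lower, beside 21.4% of all probe sets changed in the same fit. Without gold replicate 2 they were 11 and 7 (14.2% of all), and without both arrays 11 and 9 (21.7% of all). Without no gold replicate 2 they were 9 and 5 (13.3% of all), and the falls over all probe sets went from 2480 to 1565. Without gold replicate 3 they were 9 and 6 (11.1% of all, the lowest share with 1 array left out), with 1262 rises and 1258 falls over all probe sets. With 3 jars per group an exact permutation test of a single gene cannot give a two-sided p below 0.1. The calls depend on borrowing the spread from other probe sets. An ordinary test that does not borrow it called 8 higher and 3 lower, 25.6% of the members, beside 8.52% of all probe sets. In roots as a whole, fewer cells of a type and less RNA per cell cannot be told apart.

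**Figure D1:**
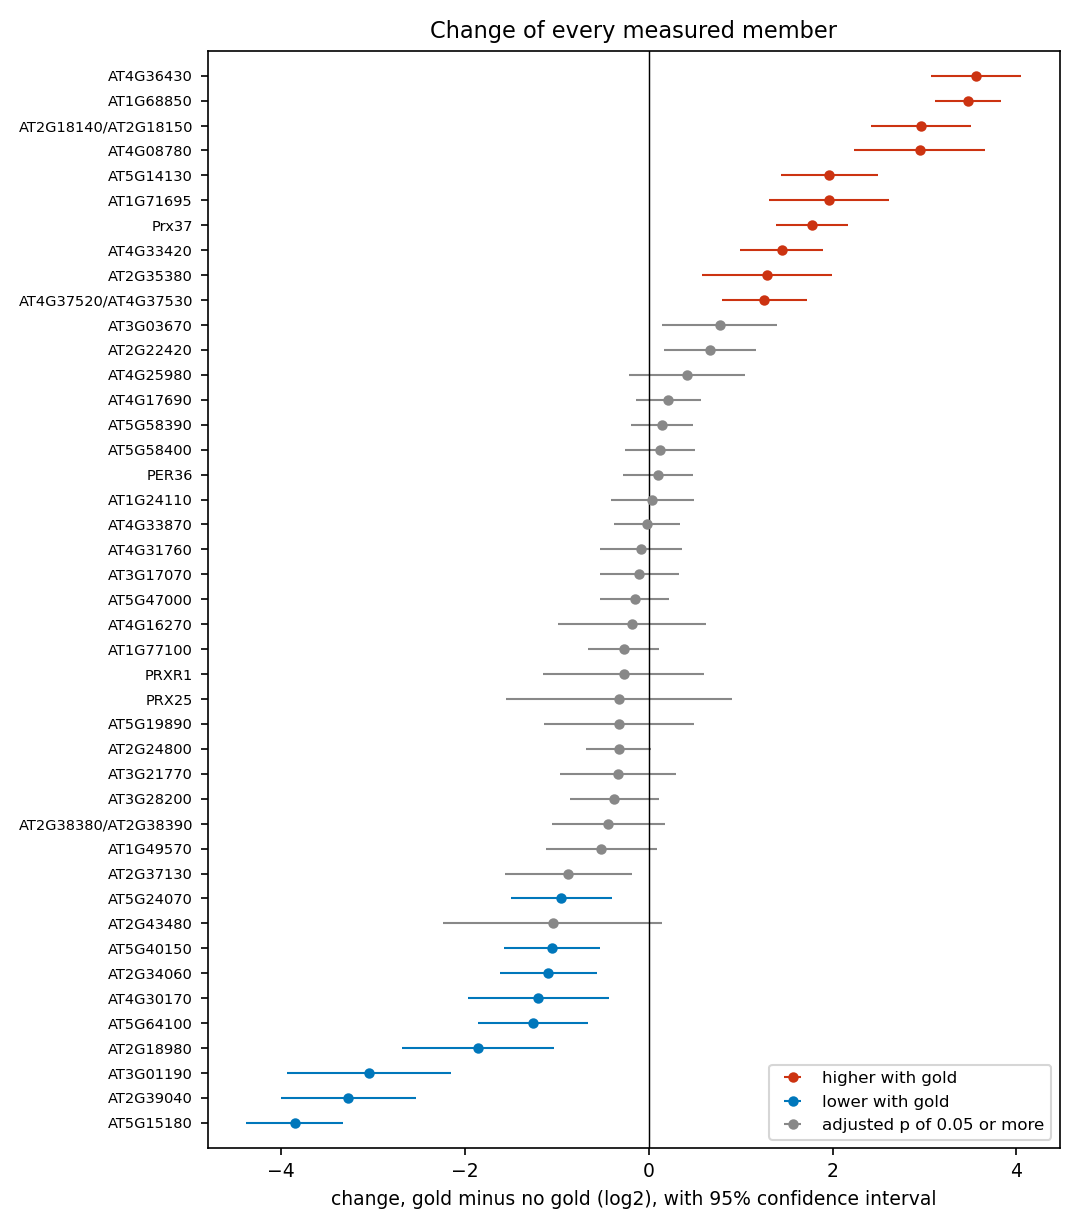
Change of all 43 probe sets of the listed class III peroxidases, gold minus no gold on a log2 scale, with the 95% confidence interval of the limma fit (3 arrays per group). The 10 rises run from 1.26 to 3.56 and the 9 falls from -3.85 to -0.95, with the 24 probe sets that did not pass between -1.05 and 0.77.

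The largest rise was that of AT4G36430, by 3.56 ± 0.212 as a log2 change (SE of the fit, n = 3 and 3; limma adjusted p = 5.07e-05), or 11.8-fold. Its values were -2.08, -1.65 and -1.52 on the no gold arrays and 1.91, 1.52 and 2.00 on the gold arrays, in order of replicate number. AT1G68850 rose almost as much, by 3.48 ± 0.155 (limma adjusted p = 2.00e-05), from -1.69, -1.92 and -1.65 without gold to 1.68, 1.85 and 1.65 with it. Its arrays agreed closely within each group, and its SE was the smallest among the changed members. The shared probe set of the tandem genes AT2G18140 and AT2G18150 rose by 2.96 ± 0.235 (limma adjusted p = 0.000153), with values of -1.60, -1.18 and -1.53 without gold and 1.97, 1.18 and 1.43 with gold. It cannot say which gene of the pair was measured. AT4G08780 rose by 2.95 ± 0.307 (limma adjusted p = 0.000529), from -0.96, -1.45 and -1.62 to 0.96, 1.95 and 1.92. These 4 probe sets all rose more than 7-fold, and in each the gold arrays stood clear of the no gold arrays.

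A further 6 probe sets rose by smaller amounts. AT5G14130 rose by 1.97 ± 0.230 (limma adjusted p = 0.000880), with values of -0.96, -0.69 and -0.74 without gold and 1.32, 0.69 and 1.497 with it. AT1G71695 rose by 1.96 ± 0.283 (limma adjusted p = 0.00250), from -1.67, -0.67 and -0.77 to 0.67, 0.94 and 1.15. Its lowest value was on no gold replicate 1, and without that array the rise was 1.65. Prx37 (AT4G08770), a peroxidase whose overexpression is known to stunt the plant, rose by 1.78 ± 0.168 (limma adjusted p = 0.000342). Its values were -1.13, -0.95 and -0.74 without gold and 0.74, 0.98 and 0.79 with gold. AT4G33420 rose by 1.45 ± 0.195 (limma adjusted p = 0.00174), from -1.07, -0.67 and -0.51 to 0.84, 0.51 and 0.76. Spread was wide for AT2G35380, at -0.23, -0.62 and -0.37 without gold and 1.46, 0.23 and 0.96 with gold (change 1.29 ± 0.303; limma adjusted p = 0.0211). The shared probe set of the tandem genes AT4G37520 and AT4G37530 rose by 1.26 ± 0.201 (limma adjusted p = 0.00397), with values of -0.70, -0.87 and -0.35 without gold and 0.35, 0.82 and 0.68 with it. The groups did not overlap in any of the 10 rises, which choosing them by the test makes likely.

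The largest fall was that of AT5G15180, at -3.85 ± 0.226 as a log2 change (SE of the fit, n = 3 and 3; limma adjusted p = 4.74e-05), or 14.5-fold lower. Its values were 1.87, 1.61 and 2.13 on the no gold arrays and -1.61, -2.29 and -2.05 on the gold arrays. AT2G39040 fell by 3.27 ± 0.319 (limma adjusted p = 0.000389), from 1.08, 1.72 and 1.96 to -1.08, -1.88 and -2.06. AT3G01190 fell by 3.04 ± 0.385 (limma adjusted p = 0.00131), with values of 0.95, 1.63 and 1.38 without gold and -0.95, -2.54 and -1.67 with it. In both of these genes the replicate 1 arrays of the 2 groups lay closest to each other. The fall of AT2G18980 was 1.86 in size, with 0.35, 1.11 and 0.81 without gold and -0.35, -1.73 and -1.23 with gold (-1.86 ± 0.357; limma adjusted p = 0.00892).

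The other 5 falls were near 2-fold. AT5G64100 fell by 1.26 ± 0.257 (limma adjusted p = 0.0118), from 0.24, 0.67 and 1.08 to -0.24, -0.84 and -0.70. AT4G30170 fell by 1.20 ± 0.332 (limma adjusted p = 0.0392), from 0.08, 0.71 and 0.75 to -0.08, -1.33 and -0.65, so that its groups were separated by the narrow gap between the replicate 1 arrays. AT2G34060 and AT5G40150 were alike: the first fell by 1.09 ± 0.226 (limma adjusted p = 0.0124), with 0.33, 0.53 and 0.37 without gold and -0.33, -1.15 and -0.56 with gold. The second fell by 1.05 ± 0.223 (limma adjusted p = 0.0139), with 0.39, 0.61 and 0.32 without gold and -0.32, -1.06 and -0.45 with gold. AT5G24070 fell by 0.95 ± 0.237 (limma adjusted p = 0.0262), from 0.55, 0.61 and 0.15 to -0.15, -0.93 and -0.47, and was the only changed member under 2-fold. Within the gold group, gold replicate 1 was the highest array in all 9 falls and gold replicate 2 the lowest in 8. Over all 2480 probe sets that fell, gold replicate 1 was the highest gold array in 67.5% and gold replicate 2 the lowest in 57.5%. Among rises, gold replicate 1 was the lowest gold array in 75.7% of the 2121 probe sets and in 4 of the 10 members. For gold replicate 2 this was so in 14.5% of the 2121 probe sets and in 5 of the 10 members.

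**Figure D2:**
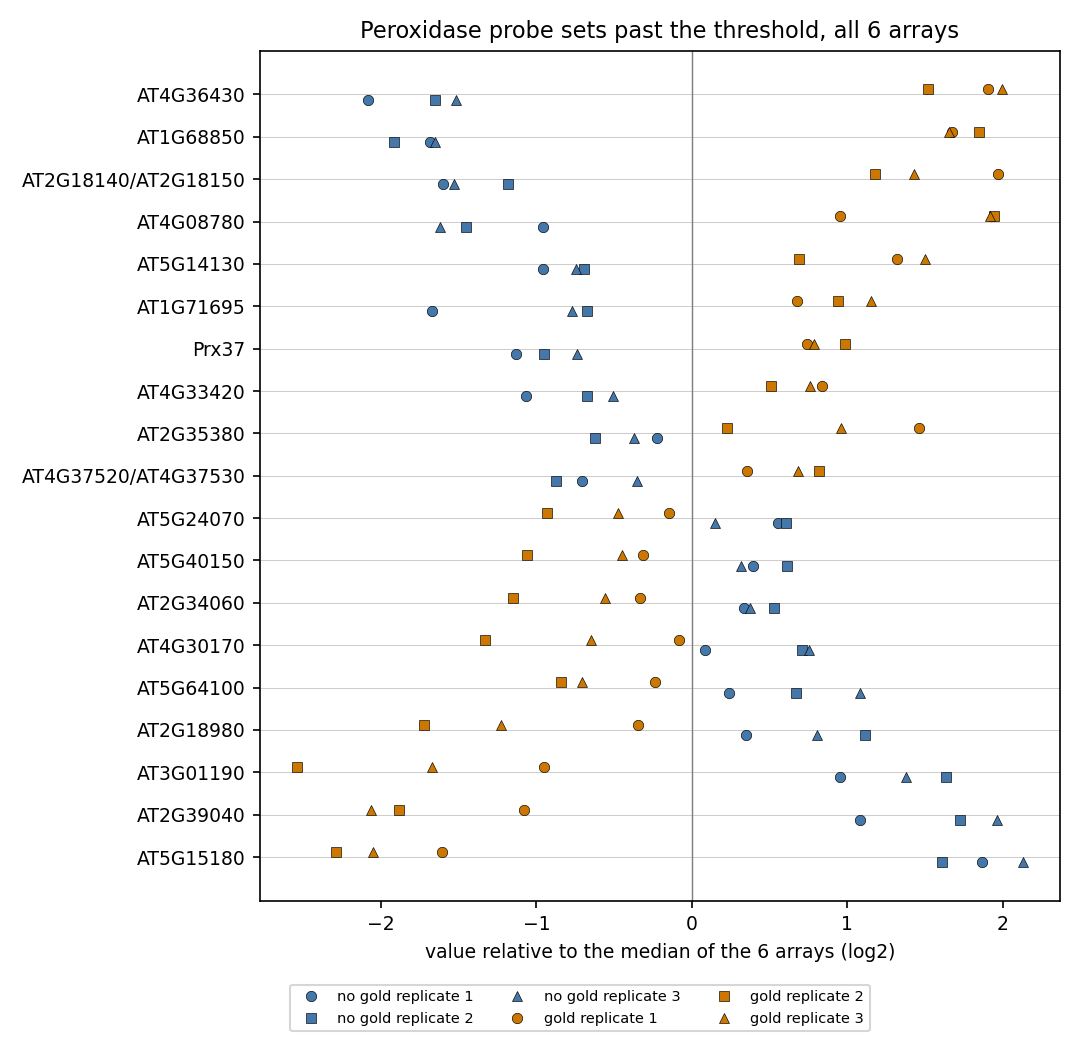
Values on all 6 arrays for the 19 peroxidase probe sets that passed the threshold, each relative to the median of the 6 arrays on a log2 scale, with colour for group and symbol for replicate number. In every one of them the gold and no gold arrays do not overlap, which choosing them by the test makes likely. The gap is narrowest for AT4G30170, where the replicate 1 arrays lie at 0.08 and -0.08.

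By chromosome, as the locus codes give it, chromosome 4 held 5 of the 10 rises among its 12 probe sets and 1 fall, and chromosome 5 held 1 rise and 4 of the 9 falls among 9. Chromosome 2 had 2 rises and 3 falls among 11, chromosome 1 had 2 rises among 5 and chromosome 3 had 1 fall among 6. These are counts without a test, and tandem genes on the same chromosome are not independent. The tandem neighbours Prx37 and AT4G08780 are both among the rises of chromosome 4. Over all probe sets 9.32% rose and 10.9% fell. Shares per chromosome were not worked out, so no pattern by chromosome is read here.

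Several of the smaller changes depended on single arrays. AT4G30170 lost its call when replicate 2 or 3 of either group was left out (highest limma adjusted p 0.124). For AT5G24070 this happened without replicate 1 or 2 of the no gold group and without replicate 2 or 3 of the gold group (highest 0.0961). AT2G35380 lost it without replicate 3 of either group or without no gold replicate 2 (highest 0.0874). AT5G40150 and AT2G34060 lost theirs without no gold replicate 2 (0.0578 and 0.0520), and AT5G64100 without gold replicate 3 (0.0598). The remaining 13 changed probe sets, among them the 4 largest rises and the 4 largest falls, passed without any 1 of the 6 arrays.

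Of the 24 probe sets that did not pass, 8 had positive and 16 negative estimates. The 4 nearest to the threshold were AT2G22420 at 0.67 (95% confidence interval 0.16 to 1.17; limma adjusted p = 0.0696), AT2G37130 at -0.87 (-1.56 to -0.19; 0.0794), AT3G03670 at 0.77 (0.14 to 1.40; 0.0875) and AT2G24800 at -0.33 (-0.69 to 0.03; 0.191). In all 4 the groups did not overlap, but picking them by a low adjusted p favours this. Over all probe sets the gold values lay wholly above in 15.6% and wholly below in 21.6%. The values of AT2G22420 were -0.01, -0.45 and -0.33 without gold and 0.62, 0.01 and 0.57 with gold, and its limma adjusted p was 0.0440 without no gold replicate 1 and 0.0287 without gold replicate 2. AT2G37130 passed without gold replicate 1 (limma adjusted p = 0.0232). AT1G49570, at -0.51 in the full data, passed without no gold replicate 1 (limma adjusted p = 0.0206), the array on which it stood at -0.15 against 0.74 and 0.63 on the other no gold arrays.

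PRX25 (AT2G41480), a peroxidase linked to lignin of the stem, was at -0.32 with an interval from -1.55 to 0.91, the widest among the members. Gold replicate 2 was far below the rest at -1.81, beside 0.16 and 0.43 on the other gold arrays and -0.11, 0.11 and -0.25 without gold. PRXR1 (AT4G21960) was at -0.27 (-1.15 to 0.60), with -0.78, 0.28 and 0.39 without gold and 0.08, -0.94 and -0.08 with gold, so that the arrays of no gold replicate 1 and gold replicate 2 were the low ones. AT2G43480 had a larger estimate, -1.05, that did not pass (limma adjusted p = 0.213), with no gold values of -0.39, 1.07 and 0.72 and gold values of 0.39, -1.43 and -0.69. PER36 (AT3G50990), which acts in the release of seed coat mucilage, was at 0.10 with a narrow interval of -0.28 to 0.48. In all, 12 of the 24 had estimates within 0.3 of 0 on the log2 scale, AT1G24110 (0.04), AT4G33870 (-0.02), AT4G31760 (-0.08) and AT5G47000 (-0.15) among them. The probe set that AT3G17070 shares with AT3G42570, a locus outside the list, was also among them at -0.10 (-0.53 to 0.33), as were AT4G16270 at -0.18 (-0.99 to 0.62) and AT1G77100 at -0.27 (-0.66 to 0.11). Within the gold group AT4G16270 ran from -0.89 to 0.63, a far wider spread than its -0.04 to 0.07 without gold. The gold arrays of AT4G17690 lay just above its no gold arrays, with an estimate of 0.21 (-0.14 to 0.57). AT3G21770 and AT3G28200 were at -0.34 (-0.97 to 0.30) and -0.37 (-0.86 to 0.11), with overlapping groups. Expression levels are not available, so it cannot be said whether those probe sets detected a transcript in roots. Gold replicate 2 was the lowest of the 6 arrays in 17 of the 43 members (39.5%) and in 27.2% of all probe sets.

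Tandem clusters were taken as class III peroxidase genes with at most 2 genes between neighbours in the gene order of the TAIR10.1 RefSeq table. There were 12 such clusters in the family, and 10 of them held 16 of the 50 members. Of these 10, 2 had no named probe set (PRX2 with AT1G05240 and RCI3, and PRXCA with PRXCB) and 3 were measured by a single shared probe set. The shared probe sets of AT2G18140/AT2G18150 and AT4G37520/AT4G37530 rose, as given above. The third, of AT2G38380/AT2G38390, was at -0.44 (-1.06 to 0.17; limma adjusted p = 0.317), with -0.19, 0.40 and 0.42 without gold and 0.16, -0.69 and -0.16 with gold.

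The other 5 clusters had separate probe sets, which gave 6 pairs. Prx37 and its neighbour AT4G08780 both rose, Prx37 by 1.17 less on the log2 scale (exact permutation p = 0.1, the smallest that 3 against 3 allows; 0.2 adjusted over the 6 pairs). The difference Prx37 minus AT4G08780 ran from -1.13 to -0.22 on the gold arrays and from -0.17 to 0.88 on the no gold arrays. Neither AT5G58390 nor AT5G58400 passed, at 0.14 (-0.20 to 0.48) and 0.12 (-0.26 to 0.50), and their changes differed by 0.02 (exact permutation p = 1).

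In the remaining 3 clusters a member lies beside a peroxidase of the other lists. AT5G19890 was at -0.32 (-1.14 to 0.49) while its neighbour AT5G19880 rose by 5.55 ± 0.289 (limma adjusted p = 3.09e-05), a difference of -5.87 (exact permutation p = 0.1; 0.2 adjusted). AT5G19890 read -0.58, 0.39 and 0.52 without gold and 0.33, -0.64 and -0.33 with gold, so its groups overlapped. AT4G25980 was at 0.42 (-0.22 to 1.05) while AT4G26010, with 2 genes between them, fell by 1.95 ± 0.395 (limma adjusted p = 0.0111), a difference of 2.37 (exact permutation p = 0.1; 0.2 adjusted). In the row of AT5G64100, AT5G64110 and PRX71 (AT5G64120), the first 2 fell, by 1.26 and 1.59. PRX71, known for restraining growth after damage to the cell wall, was at -0.28 and did not pass (limma adjusted p = 0.630). The change of AT5G64100 differed from that of AT5G64110 by 0.34 (exact permutation p = 0.4; 0.48 adjusted) and from that of PRX71 by -0.97 (exact permutation p = 0.2; 0.3 adjusted). With 3 arrays per group no pair could pass this exact test.

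**Figure D3:**
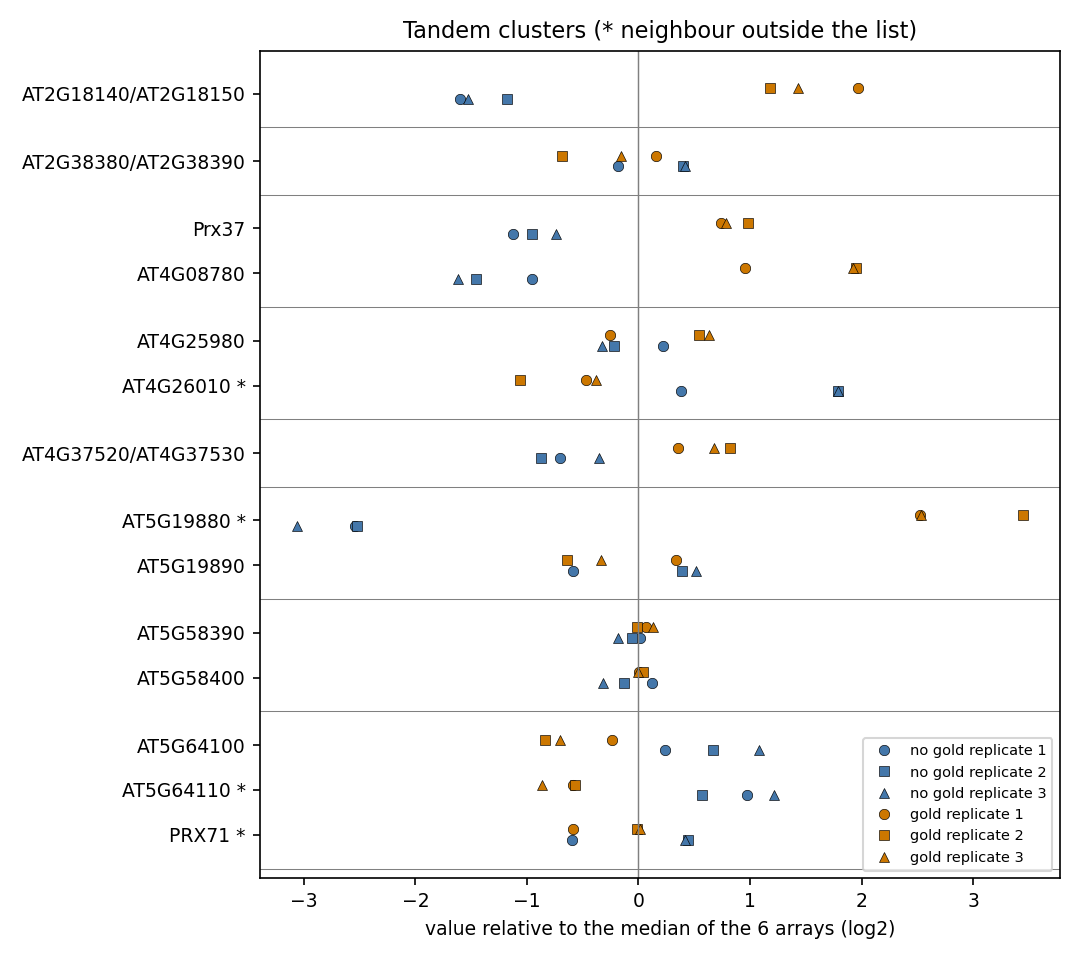
Values on all 6 arrays of the 8 tandem clusters with a listed member and a named probe set, relative to the median of the 6 arrays on a log2 scale, with a line between clusters and an asterisk for a neighbour outside the list. The arrays of AT5G19890 overlap between -0.64 and 0.52, whereas those of its neighbour AT5G19880 lie at -2.53 or lower without gold and at 2.53 or higher with gold.

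The 23 family members that the list leaves out had 16 named probe sets, of which 6 rose, 6 fell and 4 did not pass. That list was set apart by known behaviour, stress induction among it, so its counts are no independent comparison, and the difference between the lists was not tested. Its rises reached 6.47 ± 0.384 in AT1G14550 (limma adjusted p = 5.05e-05), 6.23 in AT5G39580 and 5.55 in AT5G19880, all above the largest rise of 3.56 among the listed members. Its largest fall, that of AT1G30870 at -2.53 ± 0.361 (limma adjusted p = 0.00237), was smaller than those of AT5G15180, AT2G39040 and AT3G01190. Over both lists, 16 of 59 probe sets rose and 15 fell, beside 9.32% and 10.9% of all probe sets. This pooled count includes the list set apart by known behaviour, so it is no independent comparison either.

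**Figure D4:**
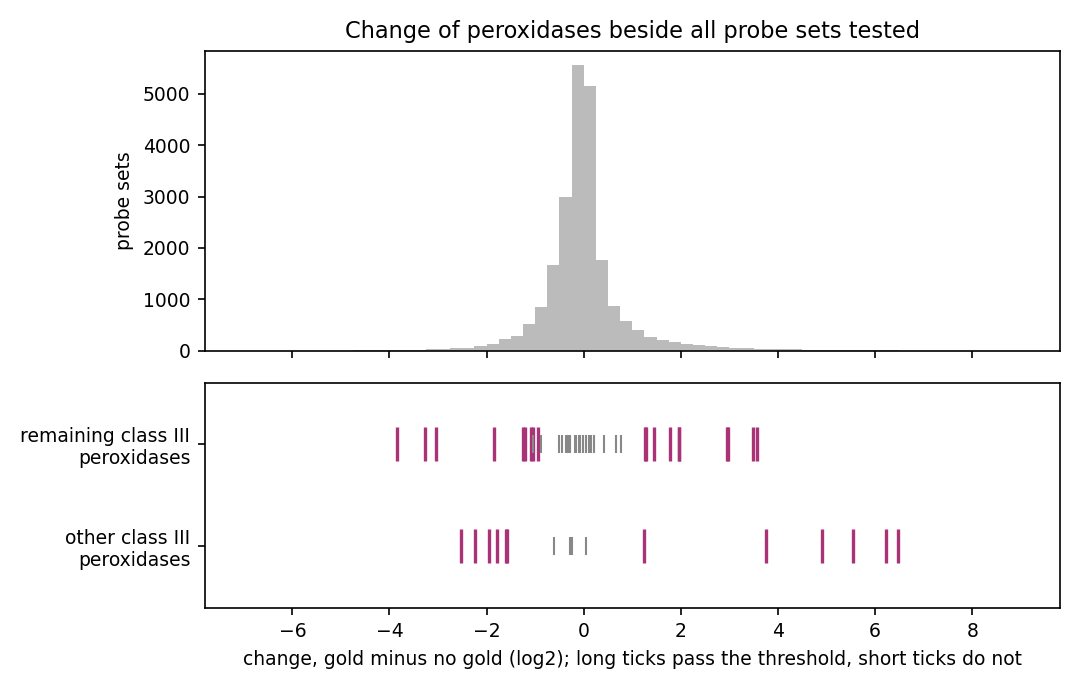
Upper panel: number of probe sets by change, gold minus no gold on a log2 scale, for all 22746 tested. Lower panel: each class III peroxidase probe set as a tick, for the 43 of the list described here and the 16 of the other family members; the listed members extend from -3.85 to 3.56 and the others from -2.53 to 6.47.

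Few genes around the peroxidases in the pathway had a probe set named for 1 gene. Of 10 NADPH oxidases of the respiratory burst type, which make the superoxide from which hydrogen peroxide forms, 3 were measured: AT1G19230 rose by 1.61 ± 0.214 (limma adjusted p = 0.00163), while AT4G25090 fell by 1.95 ± 0.213 (0.000647) and AT4G11230 by 0.88 ± 0.182 (0.0124). The call of AT4G11230 was lost without gold replicate 3 (limma adjusted p = 0.0530). Both measured genes of 18 for the synthesis of lignin precursors rose: CCR2, a cinnamoyl-CoA reductase, by 4.31 ± 0.454 and HCT, a hydroxycinnamoyl transferase, by 1.40 ± 0.324 (limma adjusted p = 0.000562 and 0.0199). The rise of HCT no longer passed when replicate 2 of the gold group was left out (limma adjusted p = 0.0558), nor when replicate 3 was (0.0901), so that CCR2 alone passed there. LAC16, the sole measured gene of 17 laccases, copper enzymes that also oxidise lignin precursors, rose by 1.71 ± 0.359 (limma adjusted p = 0.0130), a call lost without gold replicate 3 (0.0585). The ascorbate peroxidases of the chloroplast SAPX (0.39) and TAPX (-0.49) did not pass, as 2 measured of 8, though TAPX did without no gold replicate 3 (-0.73; limma adjusted p = 0.0454). UPB1, a transcription factor that represses peroxidase genes in the root, was at -1.01 ± 0.385 (limma adjusted p = 0.112), and at -0.63 without no gold replicate 1. Superoxide dismutases and catalases had no such probe set and were not analysed here.

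The measured markers of root hairs were lower with gold, whereas the members moved in both directions. All 3 measured of 5 fell, with no overlap between the groups. EXPA7 fell by 2.34 ± 0.354, EXPA18 by 2.36 ± 0.383 and AT1G30870, the peroxidase of the other list already given above, by 2.53. Of 6 shoot markers, only 2 were measured. RCA fell by 1.49 ± 0.226 (limma adjusted p = 0.00305), and PRK was at -1.48 without passing (limma adjusted p = 0.0737). PRK did pass without no gold replicate 3 (limma adjusted p = 0.0375). Xylem and endodermis markers had no named probe set. The part of these cell types in the peroxidase changes was not tested.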

How the data were processed

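The deposited log2 values cover 22810 probe sets on 6 arrays and had been centred by the authors, since the median of each row is 0 within 5e-07. Base 2 was assumed for the logarithm. How probes were summarised and arrays scaled is not given in the sources used here. Centring removes levels, so no filter on dim probe sets was possible, and changes of dim probe sets may be misjudged.

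Without the 64 control probe sets, 22746 entered the fit with limma 3.58.1 in R 4.3.3 (lmFit, eBayes, two-sided, Benjamini-Hochberg over all). Probe sets were matched to loci through the gene IDs of GEO's platform annotation (13513 with 1 gene, 503 with several, 8730 unnamed here) and the TAIR10.1 gene table. Pairs within tandem clusters were compared by an exact permutation test on their difference per array (scipy 1.17.1). The fit was tested on simulated data of the same comparison (22746 probe sets): 28 of 100 changes of 1 and 82 of 100 changes of 2 on the log2 scale were called, with 9 false calls. Only these changes were planted, whereas 4601 probe sets passed in the data. The adjusted threshold was therefore stricter in the simulation, and the shares called there are not those of the real fit. Alternatives were other scalings, the replicate block, left-out arrays, an ordinary test, robust empirical Bayes and limma treat at 1.5-fold. Jars are separate per the design text. Members, lists and tests were chosen with earlier results of these data known. Array values are given for the changed members, and changes for their tandem neighbours, the 4 nearest the threshold and those with a known name. Of the other lists, up to 3 changed genes are named. Some members that did not pass are named because of their spread, chosen after their values were seen. Figures used matplotlib 3.10.9, pandas 2.3.3 and numpy 2.4.6 in Python 3.11.15.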

Additional observations from a re-analysis of the deposited data

How the results depend on the processing

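No called member changed direction in any of the alternatives run, but only the other scalings could have shown such a turn. The groups of all 19 called members lie apart, so leaving out arrays cannot turn the sign. The block, the ordinary test, robust empirical Bayes and limma treat use the same change as the main fit. The 11 that passed the ordinary test also passed without any 1 array. Limma treat at 1.5-fold gave 8 rises and 3 falls among the members and 968 and 757 over all probe sets; the ordinary test gave 8 and 3, 922 and 1015, and 2 falls among the other peroxidases. With 1 array left out there were 9 to 11 rises and 5 to 10 falls among the members, 6 rises and 5 to 7 falls among the other peroxidases, and 1262 to 2432 rises and 1258 to 2717 falls over all probe sets; these fits have fewer arrays, and why the arrays differ was not tested. AT5G58390 minus AT5G58400 ranged from -0.0535 to 0.0696 with 1 array left out and was below 0 without no gold replicate 1 (-0.0535) or gold replicate 3 (-0.0238). With the replicate number as a block the members had 11 rises and 8 falls, 44.2% of them, beside 17.4% of all probe sets. AT4G30170 lost its call there (limma adjusted p = 0.0755) and AT3G03670 gained one (0.0435). Deviations from the group means of same-numbered arrays had correlations of -0.11, -0.25 and 0.28, so the numbers were not taken to pair the jars. The block also gave UPB1 and PRK a call (0.0228 and 0.0256). AT4G30170 also lost its call with array medians subtracted (0.0507). Quantile normalization added AT3G03670 and AT2G22420 (0.0419 and 0.0418). HCT, LAC16 and AT4G11230 lost their calls in the ordinary test (0.130, 0.113 and 0.0611) and in limma treat (0.175, 0.0829 and 0.488). The root hair markers EXPA7, EXPA18 and AT1G30870 lost theirs in the ordinary test (0.0628, 0.0728 and 0.0567), and AT4G26010 in both (0.108 and 0.0574). Without the 4 shared probe sets there were 8 rises and 9 falls among the 39 loci with their own probe set. Over all probe sets, shared ones included, 20.2% changed. Leaving out 2 arrays together was chosen after seeing the data. The filter on dim probe sets was not run, since centred values keep no levels.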
